A study of Mus musculus with 36 samples.

Results

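The NRF2 pathway was followed in cultured mouse muscle precursor cells through 10 genes. They were the transcription factor gene Nfe2l2, which encodes NRF2, its inhibitor Keap1, and 8 target genes, Hmox1, Nqo1, Txnrd1, Srxn1, Slc7a11, Gclc, Gclm and Gsr. The members were listed by name and function and matched by symbol to the Ensembl identifiers of the deposited count tables. All 10 were found among the 49315 genes of each table. RNA was measured in C2C12 myoblasts, an established mouse line of proliferating muscle precursors, used at passage 6 to 10. Cells grew on coverslips in closed culture units, and 3 of the 6 groups received nanoceria, serum-coated cerium oxide nanoparticles, at 100 µg/ml in the medium reservoir. The space units flew to the space station, where the last automated fluid exchanges fell on day 9 after launch and cells were fixed in RNAlater. The land units were run on the ground later in the same kind of hardware.

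The 18 libraries of polyadenylated RNA formed 6 groups of 3 culture units, named here in the terms of the labels. They were space without gravity with no nanoceria, space without gravity with nanoceria, space with gravity with no nanoceria, space with gravity with nanoceria, land with no nanoceria, and land with nanoceria. All groups used the same line, and the labels name no genetic change. Each unit was a separate culture of 1 line, so p-values measure the spread between cultures and not between animals. Replicate numbers follow the order of the records and pair nothing. Since space and land were separate runs, regime and run cannot be told apart in any difference between them. The 18 small RNA samples of the series were not analysed here.

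NRF2 is a transcription factor that switches on genes of antioxidant defence and detoxification. In unstressed cells KEAP1 binds NRF2 and directs it to ubiquitination and breakdown. Oxidants and electrophiles modify cysteines of KEAP1, NRF2 then accumulates, pairs with a small MAF protein and binds antioxidant response elements near its targets. Regulation is mainly of the protein, so the level of Nfe2l2 RNA is not a readout of NRF2 activity, and the targets are the usual transcript readout. Muscle cells use the pathway to handle the oxidants of contraction and mitochondrial respiration. Nanoceria are known to cycle between oxidation states of cerium and to scavenge oxidants.

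Promoters show where such elements can lie. RefSeq promoter windows on GRCm38.p6, each running from 250 bases before a transcript start to 50 after it, were found for 7 of the 10 members. The windows were searched on both strands for the core of the antioxidant response element, TGACNNNGC. The core was present in 12.4% of the 32851 promoters of the table, and in 4 of the 9 promoters of these members, 1 each of Nfe2l2, Txnrd1, Srxn1 and Gclm. A second motif, TGANTCAGC, is the form bound by NRF2 with a small MAF protein; it contains the AP-1 core TGANTCA and overlaps the first motif where N is C. It was present in 1.19% of promoters and, among the 9, in that of Srxn1. The 4 windows that hold a match are shown because they place these elements beside the genes measured below. Sequences run 5′ to 3′ on the strand of the gene, and capitals mark the matches to these motifs.
Nfe2l2, chr2:75704614-75704913, minus strand: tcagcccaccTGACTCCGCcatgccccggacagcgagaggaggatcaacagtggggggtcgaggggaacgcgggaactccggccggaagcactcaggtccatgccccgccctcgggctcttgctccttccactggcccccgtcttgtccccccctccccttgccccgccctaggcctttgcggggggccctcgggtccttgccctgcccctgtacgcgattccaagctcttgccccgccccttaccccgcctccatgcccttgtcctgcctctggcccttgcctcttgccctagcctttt
Txnrd1, chr10:82858956-82859255, plus strand: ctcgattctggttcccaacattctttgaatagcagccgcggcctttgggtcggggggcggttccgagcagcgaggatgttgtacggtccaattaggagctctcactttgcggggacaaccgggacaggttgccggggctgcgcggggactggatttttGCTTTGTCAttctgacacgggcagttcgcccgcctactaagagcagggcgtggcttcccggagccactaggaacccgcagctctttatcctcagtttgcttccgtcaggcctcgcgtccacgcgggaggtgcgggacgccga
Srxn1, chr2:152105274-152105573, plus strand: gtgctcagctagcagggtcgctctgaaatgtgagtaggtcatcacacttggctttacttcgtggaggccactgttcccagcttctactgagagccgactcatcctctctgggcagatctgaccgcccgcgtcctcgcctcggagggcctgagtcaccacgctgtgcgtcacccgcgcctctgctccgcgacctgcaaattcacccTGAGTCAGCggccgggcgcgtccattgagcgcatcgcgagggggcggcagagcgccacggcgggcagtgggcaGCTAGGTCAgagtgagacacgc
Gclm, chr3:122245307-122245606, plus strand: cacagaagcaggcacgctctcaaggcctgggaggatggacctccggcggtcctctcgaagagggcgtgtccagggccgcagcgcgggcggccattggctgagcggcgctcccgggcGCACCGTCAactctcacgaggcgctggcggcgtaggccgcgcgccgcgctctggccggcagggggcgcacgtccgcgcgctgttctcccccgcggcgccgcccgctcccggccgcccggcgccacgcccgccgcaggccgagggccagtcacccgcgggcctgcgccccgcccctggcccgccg
In Nfe2l2 the core read TGACTCCGC and began 240 bases before the start. The Gclm and Txnrd1 cores lay on the opposite strand, read GCACCGTCA and GCTTTGTCA on the strand shown, and began 134 and 92 bases before the start. The Txnrd1 window is 1 of 3 for that gene. Srxn1 carried TGAGTCAGC 45 bases before the start and the core as GCTAGGTCA, on the opposite strand, 28 bases after it. Its window held 2 AP-1 cores, 1 of them inside TGAGTCAGC. Keap1, Nqo1 and Slc7a11 had no match in their windows. Sequence outside the windows was not searched, so an element there would be missed. These matches are descriptions of sequence and do not show binding.

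Depth differed between the libraries. Total counts were between 2986628 and 11378178 in 17 libraries. The remaining library was replicate 3 of space with gravity and nanoceria, with 23858 counts and 4880 genes detected, against 12852 to 17509 in the others. In it 3 counts were worth 35.7 CPM (counts per 1000000, after TMM scaling, edgeR's trimmed mean of M values), against 0.193 to 1.11 CPM elsewhere. It held 18 counts over the 10 members and none for Keap1, Srxn1 or Gclc, so a 0 there was below what the library could show. Lars2 and 5 other genes with ribosomal RNA-like reads took 23.9% to 76.3% of counts per library. Their share averaged 65.3% ± 13.9 and 65.6% ± 7.06 (SD, n = 3) in the land groups without and with nanoceria. In space with gravity the averages were 31.0% ± 5.60 and 36.8% ± 15.8, and in space without gravity 56.7% ± 11.9 and 48.1% ± 7.92. Of 8 myoblast markers, 7 or 8 held at least 1 count in every group, with Msc at 0 in 5 of the 6. Most of their counts came from Des (10699 over all libraries) and Myf5 (8175). Myod1 held 99 counts over all libraries and was at 0 in 8 of them, and Pax7 and Cdh15 held 52 and 122. Adipocyte and keratinocyte markers summed to at most 11.2 CPM. Endothelial markers summed to at most 2.59 CPM, except in space with gravity and nanoceria replicate 1 and the smallest library, where Tek alone was at 21.1 CPM (267 counts) and 35.7 CPM (3 counts). Leukocyte markers summed to at most 41.8 CPM, with Adgre1 and Cd3e, markers of macrophages and T cells, at 0 in every group. Markers of differentiated muscle summed to between 0.659 and 18.9 CPM, except in land with no nanoceria replicate 1, where they summed to 102 CPM. That culture held 123 counts of Mymk, 75 of Ckm and 44 of Myog, so its cells may have differed in state from the others.

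Compared per length, as CPM per kilobase of exon (RPKM), the members differed widely in level. Over the 17 deeper libraries the median was highest for Hmox1 (109 RPKM), then Nqo1 (58.5), Txnrd1 (42.2), Gsr (34.7) and Nfe2l2 (33.8). Gclm (12.1), Srxn1 (11.7), Gclc (7.09), Slc7a11 (3.86) and Keap1 (3.27) followed. Neighbours in this order overlapped across libraries, so the order describes medians only. The 2 regulators were the steadiest. From the lowest to the highest of the 17 libraries, Nfe2l2 CPM spanned 3.22-fold and Keap1 CPM 3.28-fold. Slc7a11 spanned 126-fold, Nqo1 58.1-fold, Gsr 33.7-fold and Txnrd1 15.9-fold. Within groups the SD of log2 CPM was 0.36 for Keap1 and 1.36 for Slc7a11. Several extremes fell in the same cultures: land with nanoceria replicate 3 was highest for Keap1, Nqo1 and Txnrd1 and lowest for Gsr and Slc7a11. Space without gravity and no nanoceria replicate 2 was lowest for Nqo1, Txnrd1 and Gclm.

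**Figure D1:**
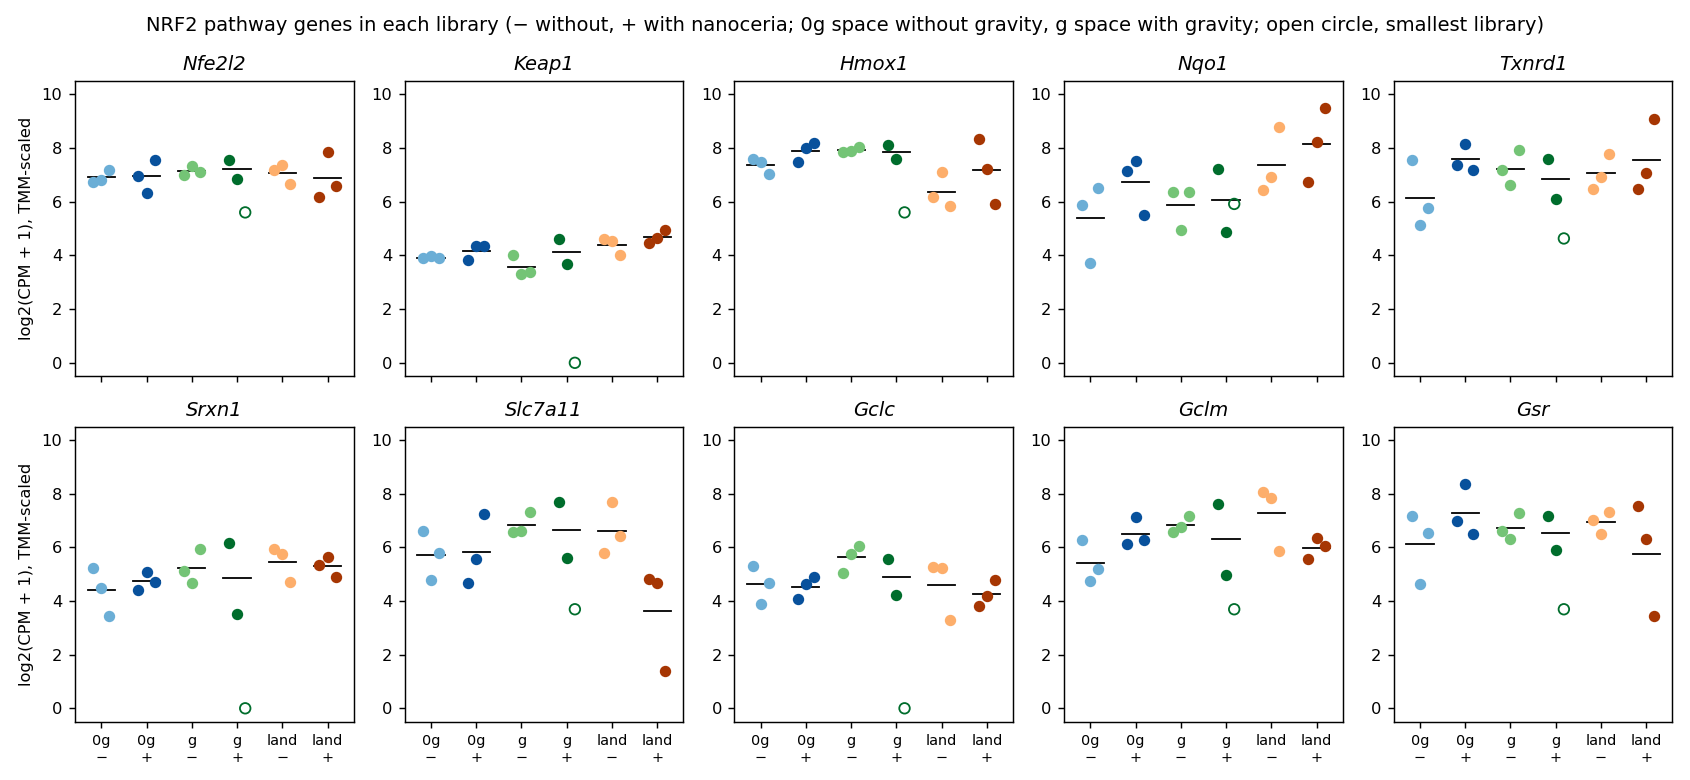
Level of each of the 10 genes in each library, as log2(CPM + 1) after TMM scaling, by group; points are libraries, horizontal lines are means of log2 values over the libraries drawn filled, and open circles are the smallest library. Nfe2l2 and Keap1 stay within narrow bands, whereas Slc7a11, Nqo1 and Gsr spread widely within groups.

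No member passed the test for nanoceria in any regime. Differences were tested with edgeR over all 11558 genes that passed the filter on low counts, which included all 10 members, and a gene is said to have risen or fallen where its Benjamini-Hochberg adjusted p was under 0.05. In each of the 3 regimes, and in the average over them, 0 of 11558 genes passed (0%), so the members' 0 of 10 equalled the background. At an unadjusted edgeR p under 0.05 there was 1 member on land, against 10.2% of genes, and none in space without or with gravity, against 3.97% and 4.46%. DESeq2 called 0 members too, in every regime, and 0, 6 and 138 of all genes in space without gravity, in space with gravity and on land. Positive log2 fold changes below are higher with nanoceria and carry the standard error (SE) from the model. In bulk RNA, fewer cells of a kind and less RNA per cell cannot be told apart.

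Neither regulator passed for nanoceria in any regime. Nfe2l2 (ENSMUSG00000015839, GRCm38 chr2:75675513-75704641, minus strand) measured 107, 112 and 143 CPM without nanoceria and 124, 79.4 and 185 CPM with it in space without gravity. Its values in space with gravity were 128, 161 and 136 CPM without and 188, 115 and 47.7 CPM with nanoceria. On land Nfe2l2 was at 146, 163 and 99.9 CPM without and 71.5, 230.2 and 95.0 CPM with nanoceria. The groups overlapped in all 3 regimes, and the lowest value came from the smallest library. The log2 fold changes were 0.10 ± 0.57, -0.22 ± 0.57 and -0.04 ± 0.57 (SE) in the same order, and the value in space with gravity was 0.12 ± 0.56 without the smallest library. The 95% interval on land ran from -1.24 to 1.15, so changes within that range cannot be told from none.

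Keap1 (ENSMUSG00000003308, chr9:21229730-21239361, minus strand), the adaptor that targets NRF2 for breakdown, was the lowest member per length. It measured 13.8, 14.6 and 13.9 CPM without nanoceria in space without gravity, and 13.1, 19.7 and 19.6 CPM with nanoceria. Keap1 in space with gravity was at 15.3, 9.02 and 9.55 CPM without and 23.3, 11.8 and 0 CPM with nanoceria. On land it was at 23.3, 22.5 and 15.1 CPM without and 21.1, 23.8 and 29.6 CPM with nanoceria. Land cultures ranged from 15.1 to 29.6 CPM and space cultures reached 23.3 CPM, and the nanoceria groups overlapped within each regime. Its log2 fold changes were 0.31 ± 0.50, 0.42 ± 0.52 and 0.29 ± 0.50, none past the threshold. In space with gravity Keap1 was at 0.66 ± 0.45 without the smallest library. Keap1 shares 510 of its 4693 exon bases with Gm16754 on the other strand; that gene held 314 counts over all libraries against 1829 for Keap1, and strand use in the counting was not given in the sources used here.

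Hmox1 (ENSMUSG00000005413, chr8:75093621-75100589, plus strand) encodes heme oxygenase 1, which breaks heme down to biliverdin, iron and carbon monoxide. In cultures without gravity it measured 194, 176 and 131 CPM without nanoceria and 178, 258 and 288 CPM with it. Cultures with gravity in space were at 229, 235 and 259 CPM without and 273, 190.3 and 47.7 CPM with nanoceria. Land cultures were at 71.3, 136 and 56.2 CPM without and 323, 149 and 60.2 CPM with nanoceria. The nanoceria groups overlapped in every regime, and land held both the highest value of Hmox1, in replicate 1 with nanoceria, and the lowest outside the smallest library. The log2 fold changes were 0.53 ± 0.64, -0.45 ± 0.64 and 1.01 ± 0.65, and on land the edgeR adjusted p was 0.617. The value of Hmox1 in space with gravity rested on the smallest library, without which it was -0.04 ± 0.64.

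Nqo1 (ENSMUSG00000003849, chr8:107388225-107403206, minus strand) encodes a quinone reductase and is widely used as a readout of NRF2. It measured 58.4, 12.2 and 90.9 CPM without nanoceria in space without gravity, and 140.3, 183 and 44.0 CPM with it. Nqo1 in space with gravity was at 80.4, 29.9 and 82.2 CPM without and 149.7, 28.2 and 59.6 CPM with nanoceria. On land it was at 85.9, 120.2 and 437 CPM without and 104, 299.9 and 712 CPM with nanoceria. Land replicates 3 stood highest in both nanoceria groups, and every pair of groups within a regime overlapped. The log2 fold changes were 1.18 ± 0.89, 0.34 ± 0.89 and 0.80 ± 0.88, with 0.46 ± 0.96 in space with gravity when the smallest library was left out. Averaged over the regimes Nqo1 had the highest value of the 10 members, 0.77 ± 0.51, with an edgeR adjusted p of 0.805.

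Of the thioredoxin arm, Txnrd1 (ENSMUSG00000020250, chr10:82859206-82897724, plus strand) encodes the cytosolic thioredoxin reductase. It measured 186, 34.2 and 53.5 CPM without nanoceria in space without gravity and 165, 285 and 146 CPM with it. Txnrd1 in space with gravity was at 144, 97.5 and 241 CPM without and 192, 68.2 and 23.8 CPM with nanoceria, and on land at 88.7, 119.7 and 217 CPM without and 87.7, 133 and 544 CPM with it. Its log2 fold changes were 1.12 ± 0.81, -0.68 ± 0.81 and 0.85 ± 0.81. Leaving out the smallest library moved the value of Txnrd1 in space with gravity to -0.31 ± 0.82. Leaving out land with nanoceria replicate 3, its highest culture, turned the land value to -0.34. Srxn1 (ENSMUSG00000032802, chr2:152105516-152111376, plus strand), the sulfiredoxin that repairs over-oxidised peroxiredoxins, ranged from 9.80 to 70.0 CPM over the 17 deeper libraries. The log2 fold changes of Srxn1 were 0.19 ± 0.72, -0.28 ± 0.73 and -0.22 ± 0.72, and -0.28 turned to 0.02 ± 0.71 without the smallest library. Both genes overlapped between nanoceria groups in every regime.

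On land the 2 widest nanoceria differences among the members were those of Slc7a11 and Gclm, both of the glutathione arm. Slc7a11 (ENSMUSG00000027737, chr3:49892526-50443614, minus strand) encodes the cystine and glutamate exchanger that brings in cystine for glutathione. On land it measured 53.8, 204 and 84.5 CPM without nanoceria and 27.4, 24.6 and 1.63 CPM with it. All 3 land cultures with nanoceria lay below all 3 without, and the lowest, replicate 3, rested on 5 counts. Slc7a11 in space without gravity was at 95.9, 26.5 and 53.6 CPM without and 24.5, 46.4 and 150.2 CPM with nanoceria. In space with gravity it was at 94.4, 96.0 and 159.6 CPM without and 206, 47.8 and 11.9 CPM with it. The groups overlapped in both space regimes. On land the log2 fold change was -2.67 ± 0.99, with a 95% interval from -4.75 to -0.59, an unadjusted edgeR p of 0.0148 and an adjusted p of 0.367. The corresponding values in space were 0.33 ± 0.93 without gravity and -0.29 ± 0.93 with gravity, the latter 0.11 ± 0.99 without the smallest library.

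Slc7a11 was the only member whose nanoceria groups did not overlap in some regime. Over all genes tested, groups did not overlap in 8.05% without gravity, 9.74% with gravity and 10.1% on land, and on land 6.41% were lower without overlap. The land value of Slc7a11 was -1.91 without the land replicate 2 that had no nanoceria and -2.12 without land with nanoceria replicate 3. With no filter on low counts its edgeR adjusted p on land was 0.0334, the only alternative under which it passed, and over the other alternatives with all replicates it ranged from 0.0697, by DESeq2, to 0.799, in a fit of the 2 land groups only. The summed level of the 8 myoblast markers was 267 to 604 CPM in land cultures with nanoceria and 75.5 to 255 CPM in all other groups. Most of the sum in those land cultures was Des (64.4 to 433 CPM) and Myf5 (84.6 to 163 CPM). By group mean on land, Myod1 was lower with nanoceria (1.63 against 4.35 CPM), and the other markers with counts were higher. The part of the marker sum in the Slc7a11 difference was not tested. Whether the nanoceria difference depended on the regime was asked with an edgeR interaction test, which no gene passed (0%). Its unadjusted p was 0.0900 for Slc7a11 and 0.0847 for Gclm, and 0 of 10 members were under 0.05, against 6.14% of genes.

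Gclm (ENSMUSG00000028124, chr3:122245557-122270732, plus strand) and Gclc (ENSMUSG00000032350, chr9:77754535-77794485, plus strand) encode the modifier and catalytic subunits of glutamate-cysteine ligase, the first step of glutathione synthesis. Gclm on land measured 268, 229 and 57.5 CPM without nanoceria and 46.6, 79.9 and 64.8 CPM with it. Gclm in space without gravity was at 76.4, 25.5 and 36.0 CPM without and 68.7, 138 and 76.0 CPM with nanoceria, and with gravity at 93.8, 108 and 142 CPM without and 197, 30.1 and 11.9 CPM with it. A pair of land cultures without nanoceria were the highest for Gclm, while replicate 3 lay among those with nanoceria. The log2 fold changes were 1.03 ± 0.76 without gravity, -0.41 ± 0.76 with gravity and -1.53 ± 0.77 on land, where the edgeR adjusted p was 0.505. Without the smallest library Gclm was at -0.03 ± 0.74 in space with gravity. Gclm shares 296 exon bases with Gm17494 on the other strand, which held 289 counts against 11978.

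Gclc stayed at or below 66.0 CPM in every library. Its log2 fold changes were -0.17 ± 0.67, -0.94 ± 0.69 and -0.55 ± 0.67, with -0.65 ± 0.66 in place of -0.94 when the smallest library was left out. Gsr (ENSMUSG00000031584, chr8:33652523-33698163, plus strand) encodes glutathione reductase, which restores reduced glutathione with NADPH. In space without gravity it measured 142, 23.7 and 92.7 CPM without and 124, 329 and 88.4 CPM with nanoceria. On land Gsr was at 127, 90.0 and 160.0 CPM without and 185, 77.3 and 9.76 CPM with nanoceria. Nanoceria cultures held both extremes of Gsr, 329 and 9.76 CPM. The log2 fold changes were 1.07 ± 0.88, -0.51 ± 0.88 and -0.47 ± 0.87, and none passed. The value of Gsr in space with gravity was -0.12 ± 0.92 without the smallest library.

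Signs can be read beside their background. In space without gravity 9 of 10 members were above 0 with nanoceria, with a median log2 fold change of 0.43, while 49.5% of all genes were above 0 and their median was -0.01. That count also depended on single libraries. With 1 library left out Nfe2l2, Slc7a11 and Srxn1 reached down to -0.24, -0.73 and -0.15, and Gclc reached up to 0.26. The median of the members then ran from 0.31 to 0.83. In space with gravity 8 of 10 were below 0, with a median of -0.35, beside 55.6% of all genes. The count in space with gravity rested on the smallest library: without it 5 members were above and 5 below 0, from -0.65 for Gclc to 0.66 for Keap1. On land 4 were above and 6 below, beside 48.4% and 51.3% of all genes. Genes measured in the same cultures are not independent, and these counts carry no test.

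**Figure D2:**
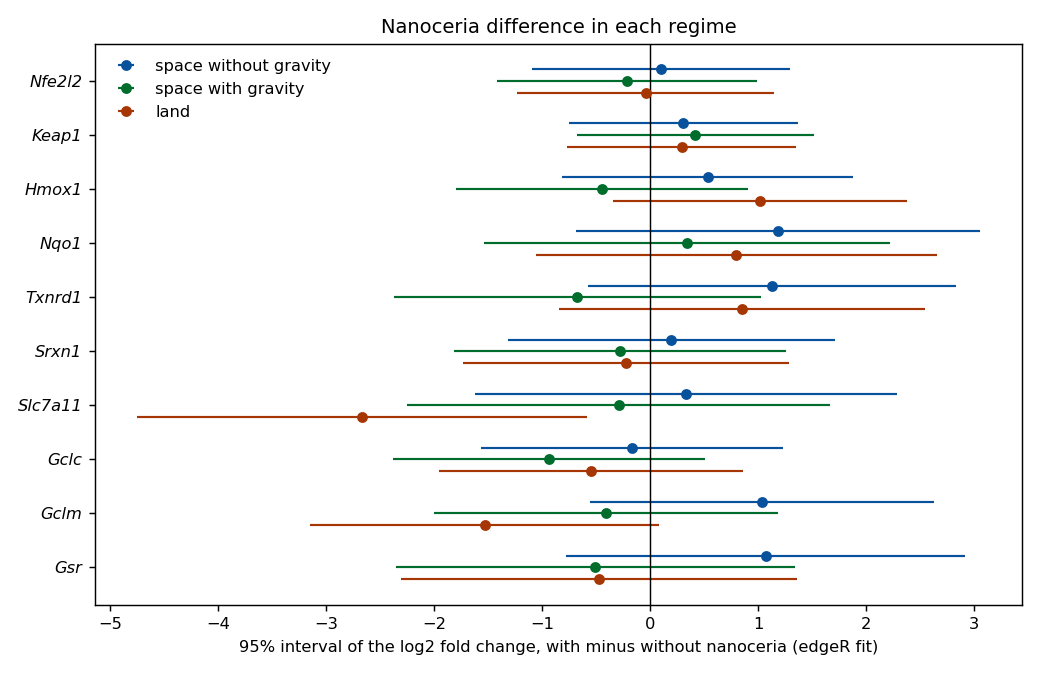
Nanoceria difference of each gene in each regime as a log2 fold change from the edgeR fit (points) with its 95% interval (lines), higher with nanoceria to the right. The interval of Slc7a11 on land, -4.75 to -0.59, is the only interval drawn that leaves out 0.

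No gene of a wider NRF2 set passed the edgeR test for nanoceria. A list of 50 other regulators, partners and targets was drawn up, of which 46 passed the filter, and Abcc2, Bach2, Gpx2 and Nfe2l3 did not. None of the 46 passed in any regime, in the average or in the interaction test, where DESeq2 called 1. At an unadjusted edgeR p under 0.05 there were 3 in space without gravity (6.52%, against 3.97% of all genes), 1 in space with gravity (2.17%, against 4.46%) and 3 on land (6.52%, against 10.2%). With nanoceria 33 of 46 were above 0 in space without gravity, beside 49.5% of all genes, and 16 of 46 on land, beside 48.4%. In space with gravity 20 of 46 were above 0, beside 44.4% of all genes, and this count also rested on the smallest library: without it 31 of 46 were above 0, beside 51.1%.

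No member passed between the gravity regimes in space. Space without gravity was compared with space with gravity over both nanoceria levels, and no gene passed the edgeR test (0%). At an unadjusted p under 0.05 there were 0 members, against 5.85% of genes, and DESeq2 also called 0 members and 11 of all genes. The members ran from -0.68 ± 0.66 for Slc7a11 to 0.45 ± 0.62 for Gsr, with 4 above and 6 below 0, beside 47.1% of all genes below. The interval of Slc7a11 reached down to -2.07, so a difference of that size is not shown to be absent. Slc7a11 was at 0.05 without space with gravity and nanoceria replicate 1, and at -1.21 without space without gravity and nanoceria replicate 3.

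Space and land differed in more genes, and among the members Nqo1 stood nearest to the threshold. With both nanoceria levels averaged, 14.0% of genes passed between space with gravity and land, 7.22% higher and 6.74% lower in space. No member passed. All values of these comparisons are space minus land, also where a comparison is named by its space regime only. The log2 fold change of Nqo1, space with gravity minus land, was -1.97 ± 0.65, with an edgeR adjusted p of 0.0501. Against land, space without gravity gave -1.80 ± 0.64 and an adjusted p of 0.0954, with 5.25% of all genes passing. The 6 land libraries ran from 85.9 to 712 CPM and the 12 space libraries from 12.2 to 183 CPM, and 4 space libraries lay above the lowest land library. With land replicate 3 left out of the groups without and with nanoceria in turn, the value in space with gravity relative to land was -1.40 and -1.51, with adjusted p of 0.139 and 0.137. It was 0.0416 without land with nanoceria replicate 1.

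Scaling moved this result past the threshold. With DESeq2 size factors in place of TMM the median of all genes relative to land shifted by -0.34 in space with gravity and by -0.25 in space without gravity. The split of calls in space with gravity relative to land turned from 834 higher and 779 lower to 628 higher and 1558 lower. In space without gravity it turned from 325 and 282 to 261 and 552. Nqo1 was then at -2.33 and -2.11, with adjusted p of 0.0187 and 0.0462. Relative to the median of all genes it had moved little. Keap1 passed as well in space with gravity relative to land, at an adjusted p of 0.0426. With the share of the ribosomal RNA-like genes as a covariate Nqo1 was at -3.88 and -2.36, with adjusted p of 0.168 and 0.0997.

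Keap1 in space with gravity was at -0.78 ± 0.37 relative to land, with an unadjusted edgeR p of 0.0465 and an adjusted p of 0.150. In space without gravity its value was -0.52 ± 0.36. Hmox1 lay in the other direction, at 0.73 ± 0.46 and 0.69 ± 0.46, with adjusted p of 0.286 and 0.362. Its land libraries reached down to 56.2 CPM, while space libraries other than the smallest began at 131 CPM. Slc7a11 was at 1.22 ± 0.67 in space with gravity and 0.54 ± 0.66 in space without gravity, both relative to land. Srxn1 was at -0.80 ± 0.51 in space without gravity. Nfe2l2 was at -0.03 ± 0.40 in space with gravity. At an unadjusted p under 0.05 there were 2 of 10 members against space with gravity and 1 of 10 against space without gravity, beside 31.9% and 24.7% of genes.

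**Figure D3:**
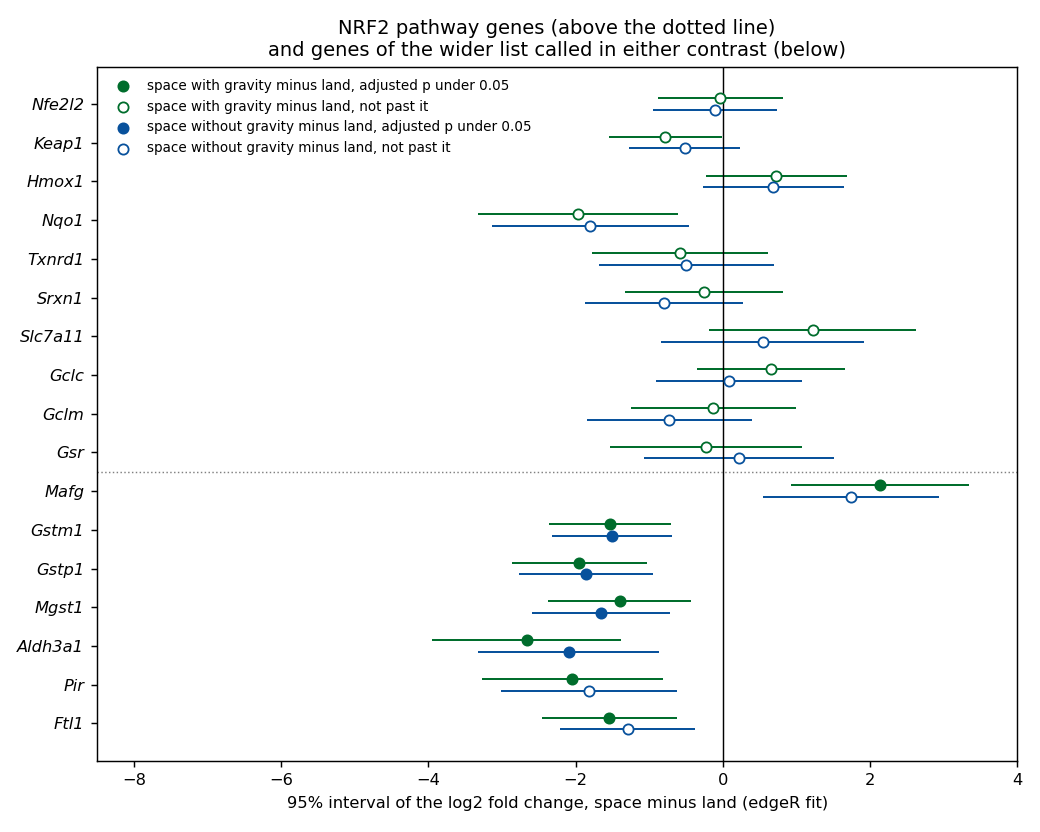
Difference between each space regime and land, averaged over both nanoceria levels, as a log2 fold change with its 95% interval, for the 10 members and for the 7 genes of the wider list that passed in either comparison (below the dotted line); filled points have an adjusted p under 0.05. Nqo1 lies near -2 in both comparisons without passing, and 6 of the 7 wider genes lie below 0.

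Among the wider list, 7 of 46 genes (15.2%) passed in space with gravity against land, a share near the 14.0% of all genes. Of the 7, 1 was higher and 6 were lower, which is 2.17% and 13% of the list beside 7.22% and 6.74% of all genes. Gstp1, a glutathione transferase, had a log2 fold change of -1.95 ± 0.44, with an edgeR adjusted p of 0.0114. Its land libraries ran from 51.9 to 227 CPM and its space libraries from 22.6 to 63.7 CPM, 11.9 CPM in the smallest. Aldh3a1, an aldehyde dehydrogenase, was at -2.67 ± 0.61 (adjusted p = 0.0123) and Gstm1, a second glutathione transferase, at -1.53 ± 0.40 (adjusted p = 0.0197). Ftl1, the ferritin light chain that stores iron, was at -1.54 ± 0.44 (adjusted p = 0.0285), with 784 to 1306 CPM on land and 276 to 623 CPM in space, 95.3 CPM in the smallest library. Its 6 land libraries lay above all 12 space libraries. Over all genes tested, 2.82% were lower without overlap in space with gravity than on land, and 1.68% in space without gravity. Other genes of the wider list were also lower without overlap, each in a single space regime. Pir, an iron-binding protein, was at -2.04 ± 0.59 (adjusted p = 0.0294) and Mgst1, a membrane-bound glutathione transferase, at -1.40 ± 0.46 (adjusted p = 0.0498). Mafg, a small MAF partner of NRF2, rose by 2.14 ± 0.58 (adjusted p = 0.0234), with 14.3 to 167 CPM on land and 54.9 to 474 CPM in space, so its libraries overlapped. Mafg shares 124 exon bases with Sirt7 on the same strand, which held 806 counts against 30572, and Ftl1 shares 355 with Gm10252 on the other, which held 28 against 59062.

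Space without gravity gave 4 calls of 46 (8.70%) against land, all lower, beside 5.25% of genes called and 2.44% called lower. They were Gstp1 at -1.85 ± 0.43, Gstm1 at -1.50 ± 0.39, Mgst1 at -1.65 ± 0.45 and Aldh3a1 at -2.09 ± 0.59, with edgeR adjusted p from 0.0250 for Gstp1 to 0.0469 for Aldh3a1. Both comparisons use the same land libraries, so they are not independent of each other. Direction leaned one way across the list. Against land 38 of 46 were below 0 in space with gravity, beside 51.6% of genes, and 39 of 46 in space without gravity, beside 51.0%. The medians were -0.74 and -0.70, while over all genes they were -0.04 and -0.02. Below 0 in space with gravity were 10 of 10 genes of glutathione use and synthesis, 6 of 6 of NADPH supply, 10 of 11 of detoxification and export, and 5 of 6 of heme and iron. Regulators and partners were 6 above and 4 below.

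Gene length and library composition moved with the regime. In space with gravity against land the median log2 fold change was -0.40 for the shortest of 3 about equal classes of genes by exon length and 0.28 for the longest. Of the 46 wider genes 25 fell in the shortest class, and 24 of these were below 0, beside 64.3% of all genes of that class. With a length trend taken out of each library, 35 of 46 were below 0 and 34 were below the median of all genes, -0.05. Gstm1, Mgst1 and Ftl1 then no longer passed (adjusted p = 0.0685, 0.118 and 0.0584). With the ribosomal RNA-like share as a covariate 0 of 46 passed in either comparison, where 2 and 38 of all genes did. That share was higher on land, so its part and that of the regime cannot be told apart.

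Single libraries decided several of these calls. Against space with gravity Gstp1 and Aldh3a1 passed in each of the 12 fits that left out a single library. Gstm1 lost its call without space with gravity and no nanoceria replicate 1 or 2 (adjusted p = 0.0567 and 0.0555). Mafg lost it without space with gravity and nanoceria replicate 1, or land with no nanoceria replicate 1 or 2 (0.0794, 0.0626 and 0.0643). Ftl1 lost it in 7 of the 12 fits, with adjusted p from 0.0509, without land with no nanoceria replicate 1, to 0.0897, without space with gravity and no nanoceria replicate 2. Pir also lost it in 7, up to 0.0802 in the fit without that same library, and Mgst1 in 10, up to 0.136 without space with gravity and nanoceria replicate 2. Against space without gravity Gstp1 lost its call in 7 of 13 fits, Gstm1 in 8, Aldh3a1 in 10 and Mgst1 in 11, and 0 of the 46 passed without replicate 1 or 3 of space without gravity in either nanoceria group, without replicate 1 or 2 of land with no nanoceria, or without land with nanoceria replicate 3.

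Some members kept pace with each other from culture to culture. Correlations of log2 CPM over the 17 deeper libraries are given as descriptions, since the points share libraries, scaling and depth. Of 45 member pairs 33 were above 0, 5 were above 0.5, and the median Pearson r was 0.27. Pairs of other genes were not counted, so these numbers are not shown to be particular to the members. Srxn1 and Gclm had the highest r, 0.79, with 0.83 within groups and Spearman's rho of 0.76. Gclc and Gclm, the 2 subunits of 1 enzyme, had r of 0.67 and 0.87 within groups. Nqo1 and Txnrd1 had r of 0.74, which dropped to 0.46 without the 2 libraries farthest from the median of Nqo1. Hmox1 and Nqo1, both classic targets, had r of -0.51, and -0.06 without such a pair of libraries. Nfe2l2 had r of 0.06 with Hmox1 and -0.11 with Nqo1.

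For 3 members the genes with the most similar pattern were found among 3359 genes of at least 4 mean log2 CPM. Closest to Hmox1 was Sqstm1, with r of 0.94 over 17 libraries, followed by Lman2 (0.87) and Rbsn (0.86). Sqstm1 encodes p62, an autophagy receptor that binds KEAP1 and is itself an NRF2 target. It shares 580 exon bases with Mrnip on the other strand, which held 93 counts against 71160. Sqstm1 measured 465 to 739 CPM without nanoceria and 572 to 726 CPM with it in space without gravity. In space with gravity it measured 701 to 942 CPM without and 131 to 912 CPM with nanoceria. On land it measured 207 to 336 CPM without and 169 to 706 CPM with nanoceria, so land and space libraries overlapped. Within groups Hmox1 and Sqstm1 had r of 0.92, and r was 0.87 without the 2 farthest libraries. Nearest to Nfe2l2 were Serinc3 (0.89), Desi2 (0.84) and Afg3l2 (0.84). Genes near Nqo1 included Lef1 (0.89) and B4galt1 (0.83). With all 18 libraries 2 of 3 of these genes were found again for Nfe2l2 and 1 of 3 for Hmox1, which was Sqstm1. Neither Lef1 nor B4galt1 was found again for Nqo1.

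**Figure D4:**
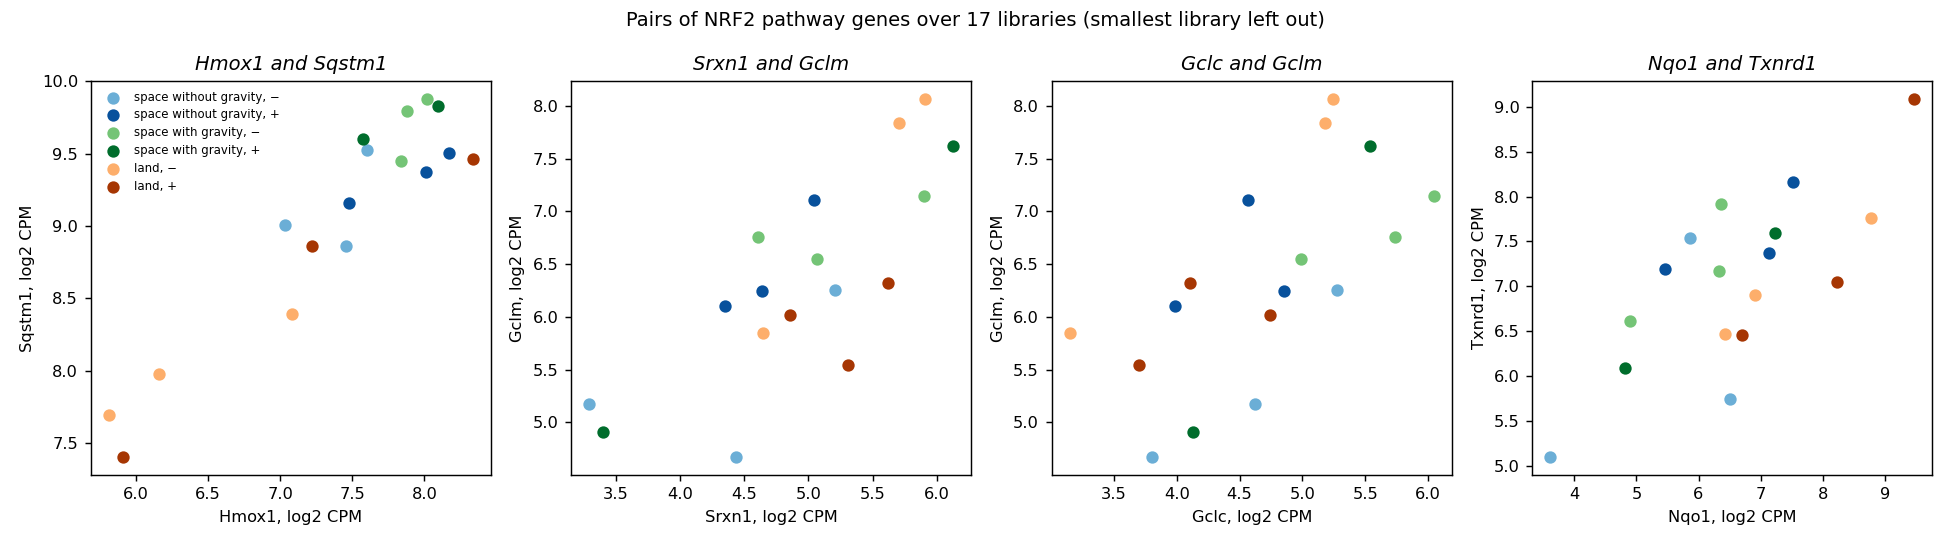
Pairs of genes over the 17 deeper libraries as log2 CPM, 1 point a library coloured by group, with minus and plus for nanoceria. Hmox1 and Sqstm1 follow each other across all groups (r of 0.94), and the other 3 pairs are looser (r of 0.67 to 0.79). Sqstm1 was picked as the gene with the highest r to Hmox1 among 3359 genes in these libraries. The other 3 pairs had the highest r among the member pairs, so the closeness drawn follows from that choice.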

How the data were processed

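Polyadenylated RNA of 18 C2C12 libraries was analysed from 1 count table a library. The deposited values are raw counts per Ensembl gene on GRCm38.p6, made by the authors. The submitters' processing notes name CASAVA, Trimmomatic 0.36.29, STAR, Subread and featureCounts; roles, settings and strand use are not given in the sources used here. Genes were kept by filterByExpr, scaled by TMM and fitted as 6 group means with the robust quasi-likelihood test of edgeR 4.0.16 (limma 3.58.1, R 4.3.3), with 12 residual degrees of freedom and a Benjamini-Hochberg adjusted p threshold of 0.05. The test was also run on simulated data, but the outcome is not given here and no result above rests on it. CPM were computed from the counts; log2 values for correlations used a prior count of 2. Intervals and floors (3 counts) cover counting error or replicate spread only, since amplified reads with no molecular identifier may be copies of 1 molecule.

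The members and lists were chosen with earlier results of these data known. Named genes were all 10 members, the 6 genes of the wider list with the smallest p among those that passed in a contrast, and the 3 genes most like each of Nfe2l2, Hmox1 and Nqo1, of which 1 is not reported here; Mgst1 passed as the seventh gene in a contrast. Alternatives were DESeq2 size factors, the DESeq2 1.42.0 test, no filter, only the groups compared, the ribosomal RNA-like share as a covariate, each library left out and, chosen after seeing the data, a length trend.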

Additional observations from a re-analysis of the deposited data

How the results depend on the processing

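No paired analysis was possible because replicate numbers follow the order of the records and tie no culture to another. No member passed for nanoceria under any alternative except 1 on land with no filter (Slc7a11). Against space with gravity 2 of 10 members passed with DESeq2 size factors and with the DESeq2 test, and 1 with no filter. Against space without gravity 1 of 10 passed under each of these. DESeq2 size factors and the DESeq2 test also called many of the 11558 genes, as counted below. With no filter the count of all genes against space with gravity is not given here. The calls are thus not shown to be particular to the members. Of the 46 genes of the wider list, 16 and 10 were called with DESeq2 size factors, 21 and 15 with the DESeq2 test and 0 in both with the covariate. The wider list had 4 calls against space with gravity with only the groups compared, and 2 against space without gravity with the length trend taken out. DESeq2 size factors called 628 of all genes higher and 1558 lower in space with gravity, and 261 and 552 in space without gravity. With the length trend taken out these counts were 726 and 660, and 278 and 240. Over all genes the DESeq2 test called 6 for nanoceria with gravity, 138 on land, 1 in the average, 8 in the interaction (1 of the wider list) and 11 for gravity in space, and 2691 and 1524 against the space regimes with and without gravity. With no filter the counts of genes were 205, 253 and 502 for nanoceria without gravity, with gravity and on land, with 1, 1 and 2 of the wider list. In that setting they were 214 in the average, 551 in the interaction (1 of the wider list), 229 for gravity and 1466 against space without gravity. The covariate left 2 and 38 genes against the space regimes with and without gravity. With only the groups compared they were 1 for nanoceria with gravity, and 1072 and 387 against the space regimes.

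Nfe2l2 in space with gravity relative to land turned to 0.063 with no filter and 0.052 with the covariate. For nanoceria on land it turned to 0.026 with only the groups compared. Leaving out single libraries gave 459 to 1614 genes and 3 to 8 of the wider list against space with gravity, 82 to 713 and 0 to 6 against space without gravity, and 0 to 1 genes for nanoceria on land. The lowest counts came without space with gravity and nanoceria replicate 1 (459) and without land with no nanoceria replicate 1 (82). Members called ran from 0 to 1 against space with gravity. With single libraries left out, nanoceria values in space without gravity ran from -0.48 to 0.26 for Gclc, -0.24 to 0.37 for Nfe2l2, -0.73 to 0.90 for Slc7a11 and -0.15 to 0.76 for Srxn1. With gravity they ran from -0.27 to 0.69 for Keap1, -0.74 to 0.12 for Nfe2l2, -0.73 to 0.74 for Nqo1, -1.75 to 0.11 for Slc7a11 and -2.20 to 0.16 for Srxn1. On land they ran from -1.51 to 0.10 for Gsr, -0.70 to 0.26 for Nfe2l2, -0.068 to 1.85 for Nqo1, -0.49 to 0.026 for Srxn1 and -0.34 to 1.29 for Txnrd1. Slc7a11 for gravity in space ran from -1.21 to 0.045, and Nfe2l2 in space with gravity relative to land from -0.27 to 0.33. The median of the members for nanoceria with gravity was -1.55 without space with gravity and nanoceria replicate 1. Apart from the alternatives named as made of fewer genes or libraries, the cause of these shifts was not tested. Depth limited the smallest library, where 3 counts were worth 35.7 CPM.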
